A study of Mus musculus with 20 samples.

Results

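RNA levels in embryoid bodies (EB) made from Chaf1a knockout cells were compared with those in EB made from wild type cells. The cells were TL1 mouse embryonic stem (ES) cells, and EB are the aggregates they form in serum-containing ES medium without LIF, the cytokine that holds them undifferentiated. Genes were taken into the comparison if they reached at least 1 FPKM (fragments per transcript length and library size) in at least 2 of the 4 EB libraries. This kept 14421 of the 53440 genes and loci in the table, against 13360 by the same rule in the ES libraries.

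There were 2 knockout EB libraries and 2 wild type EB libraries. Per the labels, the knockout was made by CRISPR/Cas9 against p150, the Chaf1a product and largest part of CAF-1, a histone chaperone. The same cells were also sequenced as ES cells grown with LIF, in 2 knockout and 2 wild type libraries, which here mainly help to estimate the spread between libraries. The labels name no clone number, no day of EB culture and no separate cultures behind the replicates, and the p-values thus reflect how far these libraries differ, which can be technical variation. For EB of each genotype there was also 1 ChIP-seq library of H3K27me3 and 1 of H3K4me3, used as a second readout.

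CAF-1 places new histones H3 and H4 on DNA behind the replication fork, so that each round of replication restores the nucleosomes. When LIF is withdrawn, ES cells normally switch off the pluripotency network and give rise within the EB to heart muscle, blood, vessels, connective tissue, gut-like epithelium and other derivatives of the germ layers. H3K27me3 is the mark that Polycomb complexes leave on repressed developmental genes, and H3K4me3 marks active and poised promoters.

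The transcriptome of knockout EB differed from that of wild type EB in close to every second gene tested. Genes of early embryo cells, nucleotide and one-carbon metabolism, DNA repair and ribosome assembly were higher in knockout EB. Genes of connective tissue, heart muscle, blood and most paracrine signalling pathways were lower. A gene is called here where limma's moderated test gave an adjusted p under 0.05. In all, 3030 genes were called higher (21.0% of those tested) and 4060 lower (28.2%), so 49.2% were called in either direction. By 2-fold or more, 1271 genes were called higher (8.81%) and 2047 lower (14.2%). Only 29 of the called rises and 45 of the called falls reached 4 on the log2(FPKM + 1) scale, the scale of every log2 difference given here (knockout minus wild type). Of all tested genes, 34.3% had both knockout EB libraries above both wild type EB libraries and 44.3% had both below. The median over all tested genes was -0.09.

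**Figure D1:**
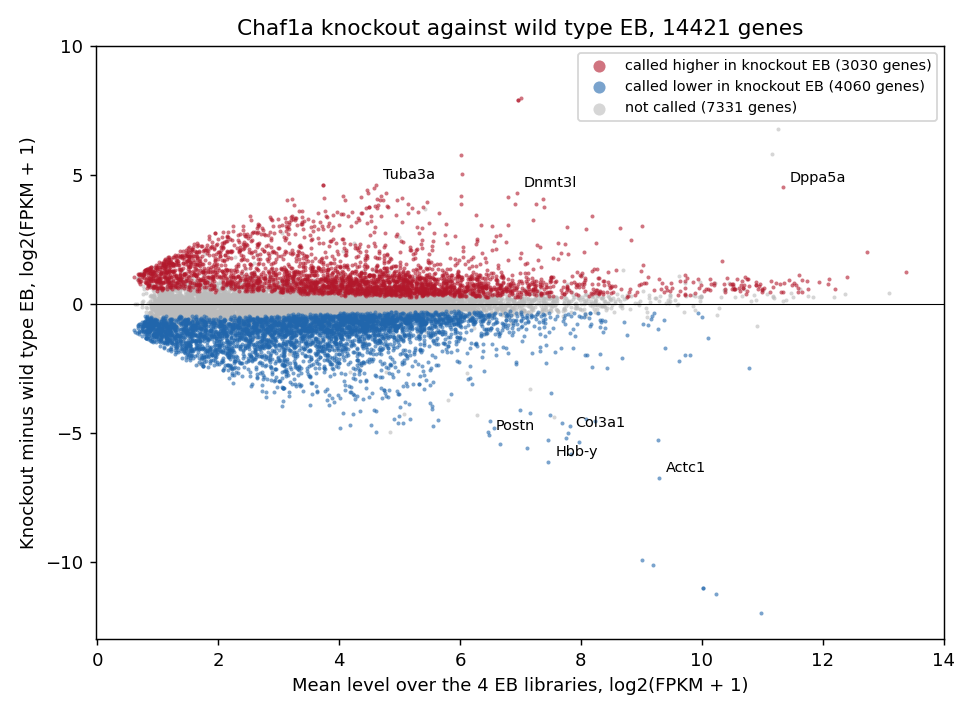
Each point is 1 of the 14421 genes, with its mean level over the 4 EB libraries on the x axis and its knockout minus wild type difference on the y axis, both on the log2(FPKM + 1) scale. Called rises (3030, red) and called falls (4060, blue) occur over the whole range of levels. Points outside -7 to 7 are loci under 500 bases, and mt-Ts1 lies lowest at -11.98.

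The balance of rises and falls depended on scaling. When each library was scaled to the same total, 2237 genes were called higher and 5297 lower, 29.7% of calls being rises, against 42.7% without scaling, and the median over all genes was at -0.27. After quantile normalization there were 3733 rises and 3595 falls (50.9% rises). Without knockout EB replicate 1 the counts were 1910 and 2672.

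Part of each count follows from the filter on low values. Of 572 genes at 1 FPKM or more in both knockout EB libraries and in neither wild type EB library, 502 were called higher. Of 743 genes with the opposite pattern, 665 were called lower. Of the 12003 genes at 1 FPKM or more in all 4 EB libraries, 2386 were called higher (19.9%) and 3015 lower (25.1%). Loci under 500 bases gave the most extreme differences, such as mt-Ts1, a mitochondrial tRNA gene chosen here after its values were seen, with 0 and 0 FPKM in knockout EB, against 3986 and 4085 FPKM in wild type EB. Such short loci are not described further.

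The knockout EB libraries resembled each other less than the wild type EB libraries did. More than 2-fold differences between replicates were found for 568 genes in knockout EB, against 327 in wild type EB. Replicate 2 of knockout EB was the higher one for 406 of the 568, and 274 of these 406 were called lower than wild type. On the first principal component of the 8 RNA libraries (71.5% of the variance), the knockout EB libraries lay at -6.87 and 20.2, against 111 and 108 for wild type EB, and the ES libraries lay between -62.2 and -54.0. Total FPKM was 781913 and 748935 in knockout EB, against 683450 and 641692 in wild type EB. Sequencing depth is unknown, as FPKM were deposited without counts.

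Summed levels of cell type markers differed between the EB. The 20 markers of ES cells and naive pluripotency summed to 8379 and 5948 FPKM in knockout EB, against 359.6 and 632 FPKM in wild type EB. Most of the knockout sums came from 1 gene, Dppa5a, with 5903 and 3983 FPKM in knockout EB, against 140.3 and 309.9 FPKM in wild type EB. The 20 genes of the heart muscle sarcomere and its calcium handling summed to 138 and 467 FPKM in knockout EB, against 5866 and 4729 FPKM in wild type EB, with Nppa, the atrial natriuretic peptide, listed at 0 in both knockout EB libraries. The 18 fibroblast and feeder cell genes summed to 200.0 and 285 FPKM in knockout EB, against 1035 and 1338 FPKM in wild type EB. All 20 ES markers were called higher, 19 of 20 sarcomere genes were called lower, and 14 of 17 tested fibroblast genes were called lower. In bulk RNA, fewer cells of a type and less RNA per cell cannot be told apart. The part of these marker sums in the results below was not tested.

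Chaf1a itself had 31.6 and 35 FPKM in knockout EB, against 31.7 and 32.1 FPKM in wild type EB (ENSMUSG00000002835.8, chromosome 17, 56040416 to 56068026, mm10). The difference was 0.06 ± 0.14 (SE; limma, adjusted p = 0.751). These RNA values do not check the knockout, and the genotype is known here from the labels alone. Chaf1b, the p60 subunit of CAF-1, had 42.2 and 37.3 FPKM in knockout EB, against 27.1 and 25.9 FPKM in wild type EB, a difference of 0.56 ± 0.12 (SE; limma, adjusted p = 0.00753) that was no longer called without knockout EB replicate 1 (adjusted p = 0.0546). Rbbp4, the histone-binding subunit shared with Polycomb and deacetylase complexes, had 200.2 and 208 FPKM in knockout EB, against 179 and 154 FPKM in wild type EB, a difference of 0.30 ± 0.10 (SE; limma, adjusted p = 0.0476). The Rbbp4 call was lost under most alternatives, with an adjusted p of 0.121 without knockout EB replicate 1, 0.159 without knockout EB replicate 2, 0.198 without wild type EB replicate 2 and 0.435 when libraries were scaled to the same total.

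The 12 largest rises and 12 largest falls were taken among called genes with a symbol other than a model name, a locus of at least 500 bases, no overlap between genotypes and a mean of at least 5 FPKM in the higher genotype. The rises included genes known from ES cells, oocytes and the male germ line, several of which wild type ES cells also carried. Tuba3a, a testis alpha-tubulin (ENSMUSG00000067702.5, chromosome 6, 125278274 to 125286042), had 45.2 and 46.7 FPKM in knockout EB, against 0.488 and 1.48 FPKM in wild type EB, a difference of 4.61 ± 0.34 (SE; limma, adjusted p = 0.000196). Dppa5a, an RNA-binding protein of pluripotent cells (ENSMUSG00000060461.5, chromosome 9, 78367052 to 78368177), had 5903 and 3983 FPKM in knockout EB, against 140.3 and 309.9 FPKM in wild type EB, a difference of 4.53 ± 0.35 (SE; limma, adjusted p = 0.000214). Both knockout EB libraries stood far above both wild type EB libraries for each of these genes. Tuba3a has near-identical relatives, so its share of their reads is uncertain. Ooep, an oocyte protein of the subcortical maternal complex, had 46.8 and 29.2 FPKM in knockout EB, against 0.638 and 1.86 FPKM in wild type EB, a difference of 4.13 ± 0.31 (SE; limma, adjusted p = 0.0002). Tcl1, a coactivator of AKT kinase, had 57.6 and 45.2 FPKM in knockout EB, against 1.19 and 2.19 FPKM in wild type EB, a difference of 4.30 ± 0.22 (SE; limma, adjusted p = 8.96e-05). Morc1, a silencer of transposons in male germ cells, had 36.2 and 25.4 FPKM in knockout EB, against 0.367 and 1.12 FPKM in wild type EB, a difference of 4.20 ± 0.26 (SE; limma, adjusted p = 0.000132). None of these 3 genes passed 3 FPKM in wild type EB. In wild type ES cells Ooep had 30.8 and 31.2 FPKM, Tcl1 55.5 and 61.1 FPKM and Morc1 42.1 and 34.4 FPKM. Tuba3a had 48.75 and 23.75 FPKM there. Xlr3a and Platr5 were low in wild type ES cells, at 4.99 and 7.04 FPKM and at 5.12 and 1.73 FPKM. Dnmt3l, the catalytically inactive partner of the de novo DNA methyltransferases, had 276 and 187 FPKM in knockout EB, against 7.34 and 14.8 FPKM in wild type EB, a difference of 4.32 ± 0.32 (SE; limma, adjusted p = 0.000198). The other 6 rises were Xlr3a at 4.51, the noncoding RNAs Platr5 at 4.43 and Lncenc1 at 4.11, the epoxide hydrolase Ephx2 at 4.19, the apolipoprotein Apoc1 at 4.18 and the threonine dehydrogenase Tdh at 4.13.

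The largest falls were in heart muscle, embryonic blood and connective tissue genes. Actc1, cardiac alpha-actin (ENSMUSG00000068614.7, chromosome 2, 114047282 to 114053548), had 1.15 and 58.2 FPKM in knockout EB, against 1415 and 1021 FPKM in wild type EB, a difference of -6.74 ± 1.26 (SE; limma, adjusted p = 0.00419). Myl7, the atrial regulatory myosin light chain (ENSMUSG00000020469.8, chromosome 11, 5896637 to 5898782), had 9.03 and 88.5 FPKM in knockout EB, against 1473 and 907 FPKM in wild type EB, a difference of -5.27 ± 0.89 (SE; limma, adjusted p = 0.00278). In both genes replicate 2 of knockout EB was far above replicate 1, and both knockout libraries stayed below both wild type libraries. The same order of the knockout replicates held for Tnnt2 (2.8 and 35.2 FPKM), Myl3 (2.22 and 21.7 FPKM), Myl2 (1.88 and 39 FPKM) and Myh7 (0.9 and 13.8 FPKM). Hbb-y, an embryonic beta-globin (ENSMUSG00000052187.4, chromosome 7, 103851749 to 103853216), had 1.55 and 5.68 FPKM in knockout EB, against 540 and 151 FPKM in wild type EB, a difference of -6.12 ± 0.63 (SE; limma, adjusted p = 0.0005). Hba-x, the embryonic zeta-globin (ENSMUSG00000055609.8, chromosome 11, 32276400 to 32278116), had 4.16 and 6.23 FPKM in knockout EB, against 734 and 165 FPKM in wild type EB, a difference of -5.84 ± 0.63 (SE; limma, adjusted p = 0.000585). For both globins the spread was wide in wild type EB, where replicate 1 was the higher library. Postn, the matrix protein periostin (ENSMUSG00000027750.16, chromosome 3, 54361109 to 54391037), had 2.22 and 6.88 FPKM in knockout EB, against 188 and 153 FPKM in wild type EB, a difference of -5.08 ± 0.38 (SE; limma, adjusted p = 0.000197). Col3a1, a fibrillar collagen, had 4.3 and 31 FPKM in knockout EB, against 349.5 and 492 FPKM in wild type EB, a difference of -5.0 ± 0.70 (SE; limma, adjusted p = 0.0014). The near-identical globin genes Hba-a1 at -5.60 and Hba-a2 at -5.42 cannot be separated with certainty where a read matches both.

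**Figure D2:**
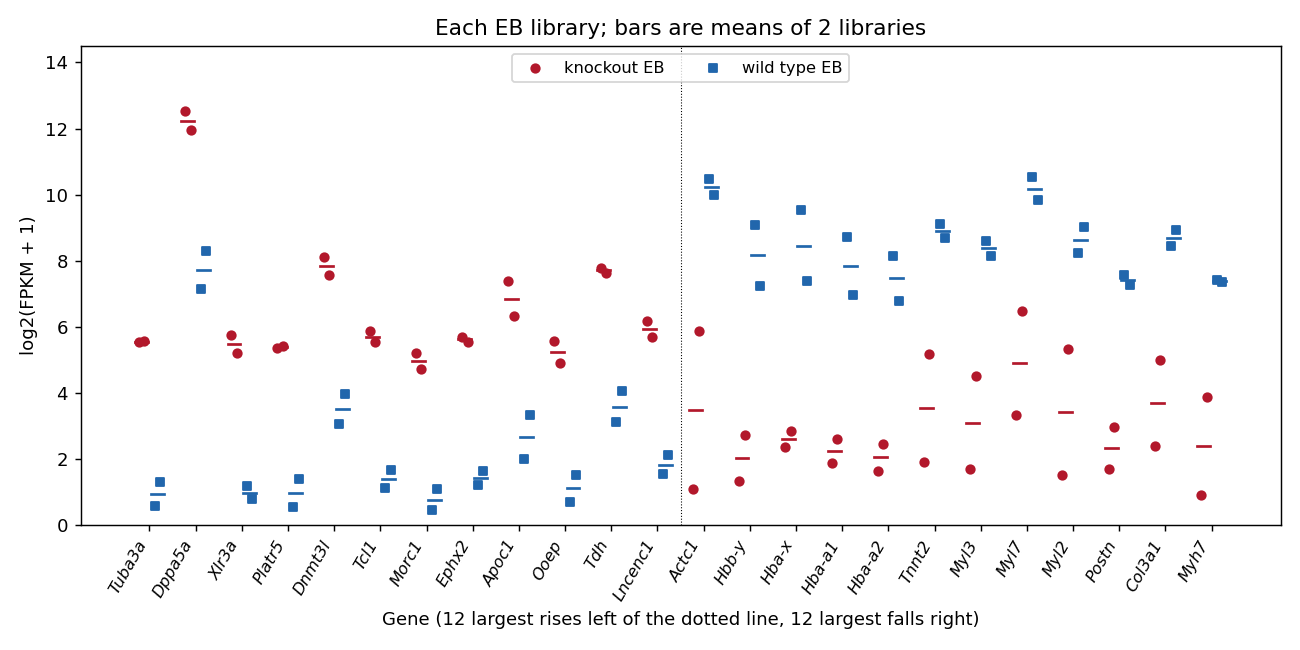
Levels of the 12 largest rises and 12 largest falls in each EB library, on the log2(FPKM + 1) scale, with knockout EB as red circles left of wild type EB as blue squares and bars at the means of 2 libraries. The rule kept only genes whose libraries do not overlap between genotypes, and the heart muscle genes show the widest gap between both knockout libraries.

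Promoter windows of the most changed genes are shown because CG content and the TATA box differ between broadly used and cell type specific promoters. They run from 250 bases before to 50 bases after the RefSeq start of the gene (GRCm38.p6). Of the 24 genes 19 had a window in the RefSeq table and 14 had exactly 1. The 3 largest rises and 3 largest falls with exactly 1 window are printed 5′ to 3′ on the strand of the gene, with CG dinucleotides and the letters TATAAA or their reverse complement TTTATA in capitals.

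Tuba3a (chr6:125286032-125286331, minus strand): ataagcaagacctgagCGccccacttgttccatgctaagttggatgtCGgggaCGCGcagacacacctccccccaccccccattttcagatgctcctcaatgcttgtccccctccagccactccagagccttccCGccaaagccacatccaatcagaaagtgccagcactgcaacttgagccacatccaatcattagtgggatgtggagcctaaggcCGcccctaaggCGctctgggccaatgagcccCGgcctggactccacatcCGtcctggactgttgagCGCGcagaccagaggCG
Xlr3a (chrX:73097046-73097345, minus strand): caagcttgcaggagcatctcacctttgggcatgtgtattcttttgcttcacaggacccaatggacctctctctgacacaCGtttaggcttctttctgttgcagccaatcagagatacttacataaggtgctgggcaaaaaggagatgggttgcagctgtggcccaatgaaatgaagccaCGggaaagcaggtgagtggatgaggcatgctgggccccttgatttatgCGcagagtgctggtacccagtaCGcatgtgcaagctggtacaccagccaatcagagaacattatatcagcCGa
Platr5 (chr1:88754640-88754939, plus strand): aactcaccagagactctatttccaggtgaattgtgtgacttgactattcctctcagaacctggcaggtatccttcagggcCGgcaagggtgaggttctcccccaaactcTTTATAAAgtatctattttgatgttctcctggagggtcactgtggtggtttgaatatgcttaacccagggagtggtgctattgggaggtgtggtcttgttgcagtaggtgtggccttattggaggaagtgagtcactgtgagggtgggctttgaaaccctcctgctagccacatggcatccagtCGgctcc
Actc1 (chr2:114052826-114053125, minus strand): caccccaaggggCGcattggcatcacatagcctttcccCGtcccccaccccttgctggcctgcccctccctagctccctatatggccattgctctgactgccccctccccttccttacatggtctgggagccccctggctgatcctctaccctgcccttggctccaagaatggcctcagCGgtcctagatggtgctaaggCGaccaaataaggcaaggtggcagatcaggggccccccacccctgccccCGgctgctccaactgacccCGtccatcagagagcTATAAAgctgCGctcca
Hbb-y (chr7:103853158-103853457, minus strand): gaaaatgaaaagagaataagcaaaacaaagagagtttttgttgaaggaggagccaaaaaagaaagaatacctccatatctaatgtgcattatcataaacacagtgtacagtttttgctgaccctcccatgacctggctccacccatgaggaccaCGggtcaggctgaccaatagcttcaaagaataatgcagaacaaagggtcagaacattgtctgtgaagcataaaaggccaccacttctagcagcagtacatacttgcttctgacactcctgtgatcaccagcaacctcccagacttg
Hba-x (chr11:32276350-32276649, plus strand): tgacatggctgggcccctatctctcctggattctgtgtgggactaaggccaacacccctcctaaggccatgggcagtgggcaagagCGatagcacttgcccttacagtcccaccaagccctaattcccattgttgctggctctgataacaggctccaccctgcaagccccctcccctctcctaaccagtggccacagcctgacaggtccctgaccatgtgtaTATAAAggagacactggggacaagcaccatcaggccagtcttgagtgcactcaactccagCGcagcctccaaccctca

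The windows held 12 CG in Tuba3a, 5 in Xlr3a and 2 in Platr5, and 7 in Actc1, 1 in Hbb-y and 2 in Hba-x. TATAAA began 28 bases before the start in Hba-x, 33 bases after the annotated start in Actc1 and 139 bases before it in Platr5, where it overlaps a TTTATA. H3K4me3 signal per gene was 3.04 in knockout EB, against 0.88 in wild type EB for Tuba3a and 5.31 in knockout EB, against 0.454 in wild type EB for Xlr3a. For Actc1 it was 0.08 in knockout EB, against 0.454 in wild type EB. Both Actc1 values, like the wild type Xlr3a value, lay below the 0.5 added to ChIP values in ratios and are near the floor.

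Across genes with a window (9475 of 14421), both classes of more strongly changed genes held fewer CG than genes not called. For a gene with several windows the mean CG count was taken, and a motif was counted if any window held it. The median was 16 CG in genes called higher by 2-fold or more and 19 in those called lower by 2-fold or more, against 21 in genes not called and 21 in all genes tested. It was 7 in all genes with a RefSeq window, so both classes held more CG than those. Genes with under 5 CG made up 12.4% of the first class and 8.4% of the second, against 3.0% of genes not called and 37.8% of all genes with a RefSeq window. TATAAA, searched on both strands, was found for 11.7% and 11.5% of the genes of both classes, against 7.2% of genes not called and 15.7% of all genes with a RefSeq window. Genes with at least 1 CACGTG, an E-box, made up 12.9% of the higher class, 8.4% of the lower class, 12.1% of genes not called and 8.1% of all genes with a RefSeq window. These are descriptions of letters in a window and not of bound sites.

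Genes of the Hedgehog, BMP, Wnt, Notch and retinoic acid pathways were lower in knockout EB in most of their called members, while Nodal and Fgf4 were higher. Shh, a morphogen of notochord and gut endoderm (ENSMUSG00000002633.4, chromosome 5, 28456815 to 28467256), had 0.0728 and 0.543 FPKM in knockout EB, against 14.2 and 11.5 FPKM in wild type EB, a difference of -3.42 ± 0.22 (SE; limma, adjusted p = 0.000137). Of 13 tested Hedgehog genes 11 were called lower and 0 higher, with a median of -1.32. The coreceptor Gas1 was at -3.14, the signal transducer Smo at -1.83 and the transcription factor Gli3 at -1.63. Smo had 11.3 and 18.7 FPKM in knockout EB, against 52.9 and 56.3 FPKM in wild type EB, and no knockout library came near a wild type one. The receptor Ptch1, at -1.33 (adjusted p = 0.0597, limma), was not called.

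In the BMP pathway, which directs ventral mesoderm, 18 of 23 tested genes were called lower and 0 higher, with a median of -1.03. Bmp7 had 1.86 and 3.84 FPKM in knockout EB, against 19.8 and 17.1 FPKM in wild type EB, a difference of -2.38 ± 0.26 (SE; limma, adjusted p = 0.000633). Bmp5 had 0.572 and 2.7 FPKM in knockout EB, against 14.9 and 12.4 FPKM in wild type EB, a difference of -2.60 ± 0.36 (SE; limma, adjusted p = 0.00137). The ligands Bmp6 at -1.46 and Gdf6 at -1.30 were also called lower, with both knockout libraries at or below 0.7 FPKM. Bmp4, the ligand that induces mesoderm and germ cells, did not follow: it had 25 and 35.5 FPKM in knockout EB, against 41.8 and 30.6 FPKM in wild type EB, with overlapping groups and a difference of -0.26 ± 0.47 (SE; limma, adjusted p = 0.682).

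Among Wnt genes 25 of 40 tested were called lower and 5 higher, 3 without wild type EB replicate 1, with a median of -0.99. Wnt2, a ligand of heart and lung mesoderm (ENSMUSG00000010797.6, chromosome 6, 17988940 to 18030585), had 0.325 and 1.23 FPKM in knockout EB, against 32.5 and 19.2 FPKM in wild type EB, a difference of -3.92 ± 0.31 (SE; limma, adjusted p = 0.000228). The receptor Fzd4 had 0.914 and 1.72 FPKM in knockout EB, against 16 and 12.1 FPKM in wild type EB, a difference of -2.71 ± 0.23 (SE; limma, adjusted p = 0.00027). Wnt5a, a ligand of noncanonical signalling, had 2.23 and 4.33 FPKM in knockout EB, against 13.6 and 11.5 FPKM in wild type EB, a difference of -1.70 ± 0.27 (SE; limma, adjusted p = 0.00206). Notum, a secreted enzyme that inactivates Wnt ligands, went the other way with 15.9 and 11.6 FPKM in knockout EB, against 0.83 and 2.41 FPKM in wild type EB, a difference of 2.54 ± 0.29 (SE; limma, adjusted p = 0.000722), as did Wnt3 at 1.05. Axin2, a common target of canonical signalling, was at -0.10 (adjusted p = 0.696, limma).

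Notch receptors, ligands and targets were called lower in 12 of 20 cases, with the ligands Jag1 at -1.45 and Dll4 at -2.13 and the target Hey1 at -2.0. Hey1 had 9.64 and 16 FPKM in knockout EB, against 64.7 and 42.9 FPKM in wild type EB, and no library of one genotype reached into the other. Rbpj, the DNA-binding partner of the Notch receptors, was the 1 member called higher, with 80.9 and 61.1 FPKM in knockout EB, against 25.8 and 27.5 FPKM in wild type EB, a difference of 1.37 ± 0.18 (SE; limma, adjusted p = 0.00106). Hes1, another target, was at -0.72 (adjusted p = 0.0212, limma) with 16.7 and 24.4 FPKM in knockout EB, against 34 and 33.7 FPKM in wild type EB, and its adjusted p was 0.0575 with no filter, 0.124 without knockout EB replicate 1, 0.0897 without wild type EB replicate 1 and 0.0887 without wild type EB replicate 2.

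Retinoic acid genes, which carry a patterning signal made from vitamin A, were called in both directions. The receptors Rarb, at -2.65, and Rara, at -1.07, the retinol dehydrogenase Rdh10, at -1.70, and the degrading enzyme Cyp26b1, at -1.42, were among 9 of 15 tested genes called lower. Rarb had 0.767 and 0.872 FPKM in knockout EB, against 9.56 and 11.4 FPKM in wild type EB. Rarg, the third receptor, was called higher with 22.9 and 24.5 FPKM in knockout EB, against 12.7 and 12.5 FPKM in wild type EB, a difference of 0.86 ± 0.17 (SE; limma, adjusted p = 0.00515).

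Growth factor receptors and their ligands were mostly lower. Of 24 tested genes of the PDGF, VEGF, KIT and ephrin families, 18 were called lower and 2 higher, with 1 or 0 higher without any 1 of the EB libraries. Pdgfra, the PDGF receptor of mesenchyme and primitive endoderm, had 1.78 and 5.51 FPKM in knockout EB, against 51.4 and 47.4 FPKM in wild type EB, a difference of -3.56 ± 0.37 (SE; limma, adjusted p = 0.000488). The ephrin ligand Efnb1 had 7.75 and 9.32 FPKM in knockout EB, against 45.9 and 47.4 FPKM in wild type EB, a difference of -2.33 ± 0.18 (SE; limma, adjusted p = 0.000219). On the IGF axis 11 of 17 tested genes were called lower and 3 higher. Igf2, the fetal growth factor, had 416 and 657 FPKM in knockout EB, against 2923 and 2982 FPKM in wild type EB, and the binding proteins Igfbp4 and Igfbp3 were at -2.26 and -1.48. Igfbp2, at 1.00, and Igf2bp1, an RNA-binding protein that binds the Igf2 transcript, at 0.97, were called higher. Igf2bp1 had 91.9 and 95.3 FPKM in knockout EB, against 43.9 and 50.9 FPKM in wild type EB. Of 17 Hippo genes 10 were called lower and 0 higher, a count of 6 without wild type EB replicate 2. Tead2, a DNA-binding effector of the pathway, had 78.6 and 109 FPKM in knockout EB, against 291 and 328 FPKM in wild type EB, a difference of -1.73 ± 0.17 (SE; limma, adjusted p = 0.000404).

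Nodal and TGF-beta genes were called in both directions. Of 24 tested members 9 were called higher and 13 lower. Nodal, the ligand that patterns the epiblast, had 19.3 and 23.4 FPKM in knockout EB, against 3.18 and 3.61 FPKM in wild type EB, a difference of 2.34 ± 0.15 (SE; limma, adjusted p = 0.000141). Its antagonist and target Lefty2 had 64.7 and 71.8 FPKM in knockout EB, against 7.77 and 7.56 FPKM in wild type EB, a difference of 3.00 ± 0.27 (SE; limma, adjusted p = 0.000311). The related ligand Gdf3, at 3.10, rose as well. On the TGF-beta side, the ligands Tgfb2, at -3.00, and Tgfb3, at -2.36, and the receptor Tgfbr2, at -2.12, fell. Tgfb2 had 1.91 and 6.89 FPKM in knockout EB, against 37.3 and 37.2 FPKM in wild type EB.

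FGF genes were called at shares near those of all genes, with 4 of 22 called higher and 6 lower, and the sign of their median depended on scaling (from -0.31 to 0.09). Fgf4, the autocrine FGF of ES cells, had 45.1 and 32.1 FPKM in knockout EB, against 2.64 and 4.45 FPKM in wild type EB, a difference of 3.13 ± 0.23 (SE; limma, adjusted p = 0.00019). Etv5, a transcriptional target of FGF and ERK signalling, had 116 and 112 FPKM in knockout EB, against 30.5 and 32.4 FPKM in wild type EB, a difference of 1.83 ± 0.09 (SE; limma, adjusted p = 8.48e-05). The receptors Fgfr3 and Fgfr2 were called lower, at -2.51 and -1.52, and Fgfr3 had 0.706 and 0.964 FPKM in knockout EB, against 9.84 and 9.06 FPKM in wild type EB. Components of LIF signalling showed no common direction, with 4 of 15 called higher and 4 lower, and with 2 higher and 1 lower without knockout EB replicate 1, and 2 lower without any other single EB library or with no filter. The ligand gene Lif had 2.65 and 2.3 FPKM in knockout EB, against 0.67 and 0.796 FPKM in wild type EB, a difference of 1.00 ± 0.18 (SE; limma, adjusted p = 0.00395).

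The extracellular matrix was lower in knockout EB across structural proteins and the enzymes that fold and cut them. Of 25 tested collagens 21 were called lower and 0 higher, with a median of -1.77; 6 of them passed the FPKM filter only through wild type EB. Col1a1, the main chain of type I collagen, had 0.862 and 1.75 FPKM in knockout EB, against 34.8 and 83.8 FPKM in wild type EB, a difference of -4.61 ± 0.39 (SE; limma, adjusted p = 0.000262). Col1a2 had 7.34 and 5.01 FPKM in knockout EB, against 47.6 and 73.2 FPKM in wild type EB, a difference of -3.08 ± 0.25 (SE; limma, adjusted p = 0.000242), with the higher knockout value in replicate 1. The type IV collagens of basement membranes, Col4a1 at -0.97 (adjusted p = 0.126, limma) and Col4a2 at -1.08 (adjusted p = 0.0687), were not called.

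Of 21 tested genes of collagen folding, crosslinking and proteolysis, 17 were called lower and 1 higher. Serpinh1, the collagen chaperone HSP47, had 107 and 158 FPKM in knockout EB, against 494 and 514 FPKM in wild type EB, a difference of -1.95 ± 0.20 (SE; limma, adjusted p = 0.000455). The prolyl hydroxylase P4ha2 was at -1.66 and the membrane protease Mmp15 at -1.94. Timp1, an inhibitor of matrix metalloproteases, was the 1 gene called higher, with 16 and 11.1 FPKM in knockout EB, against 5.23 and 4.97 FPKM in wild type EB, a difference of 1.24 ± 0.19 (SE; limma, adjusted p = 0.00204).

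Proteoglycans were called lower in 12 of 17 cases and higher in 2. Lum and Dcn, small leucine-rich proteoglycans of connective tissue, were at -4.68 and -3.12, and Dcn had 0.254 and 0.174 FPKM in knockout EB, against 8.36 and 10.9 FPKM in wild type EB. The syndecans, transmembrane proteoglycans, moved apart: Sdc3 had 5.16 and 7.98 FPKM in knockout EB, against 41.9 and 44.4 FPKM in wild type EB and Sdc4 had 100.1 and 84.3 FPKM in knockout EB, against 26.8 and 26.6 FPKM in wild type EB, differences of -2.57 ± 0.22 (SE; limma, adjusted p = 0.000291) and 1.75 ± 0.22 (SE; limma, adjusted p = 0.000986). Among basement membrane and other matrix glycoproteins 14 of 22 were called lower, 8 without knockout EB replicate 1, 7 without wild type EB replicate 2 and 9 with no filter on low values. Vtn, the adhesive protein vitronectin, had 0.0366 and 0 FPKM in knockout EB, against 7.11 and 7.84 FPKM in wild type EB, a difference of -3.06 ± 0.16 (SE; limma, adjusted p = 8.96e-05). Nid2, a basement membrane linker, was called higher with 106 and 116 FPKM in knockout EB, against 58.2 and 66.5 FPKM in wild type EB, a difference of 0.82 ± 0.11 (SE; limma, adjusted p = 0.0012).

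Of 20 tested cadherins and regulators of epithelial to mesenchymal transition, 5 were called higher and 11 lower. Cdh1, E-cadherin (ENSMUSG00000000303.12, chromosome 8, 106603351 to 106670246), had 112 and 103 FPKM in knockout EB, against 64.6 and 62.8 FPKM in wild type EB, a difference of 0.74 ± 0.13 (SE; limma, adjusted p = 0.00289). Cdh2, N-cadherin (ENSMUSG00000024304.14, chromosome 18, 16588877 to 16809246), had 9.22 and 20 FPKM in knockout EB, against 48.8 and 51.2 FPKM in wild type EB, a difference of -1.80 ± 0.33 (SE; limma, adjusted p = 0.00394). The epithelial factor Grhl2 had 26.1 and 27.1 FPKM in knockout EB, against 4.96 and 5.32 FPKM in wild type EB, a difference of 2.17 ± 0.12 (SE; limma, adjusted p = 0.000102). The adhesion protein Epcam, at 1.10, and the epithelial splicing regulator Esrp1, at 1.08, also rose. The mesenchymal factors Twist2, at -2.96, Snai2, at -2.64, and Zeb1, at -1.92, fell, and Zeb1 had 3.05 and 6.66 FPKM in knockout EB, against 19.4 and 20.9 FPKM in wild type EB.

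Integrins, the receptors for matrix, were called lower in 8 of 15 cases. The common beta subunit Itgb1 had 79.9 and 86.6 FPKM in knockout EB, against 161 and 169 FPKM in wild type EB, a difference of -0.98 ± 0.14 (SE; limma, adjusted p = 0.00176). Itga9 had 7.6 and 6.97 FPKM in knockout EB, against 31.1 and 29.4 FPKM in wild type EB, a difference of -1.91 ± 0.17 (SE; limma, adjusted p = 0.0003). Itgb7, a beta subunit known from lymphocytes, was the 1 integrin called higher, with 13.7 and 13.6 FPKM in knockout EB, against 1.58 and 1.68 FPKM in wild type EB, a difference of 2.48 ± 0.12 (SE; limma, adjusted p = 8.68e-05). Of 18 tested clustered protocadherins, adhesion proteins used in nerve cells, 16 were called lower, but 11 of the 18 passed the filter only through wild type EB. Isoforms of these clusters share exons, so the split between them is uncertain, and the most abundant, Pcdhgc3, had 8.45 and 18.4 FPKM in knockout EB, against 61.3 and 61.1 FPKM in wild type EB. Tight junction, desmosome and keratin genes were called in both directions, 8 of 26 higher and 5 lower with a median of -0.07, and with the tight junction proteins Tjp3 at 1.66 and Cldn5 at -2.83. Krt18, a keratin of simple epithelia, had 320.2 and 243 FPKM in knockout EB, against 304 and 269 FPKM in wild type EB, with overlapping groups.

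**Figure D3:**
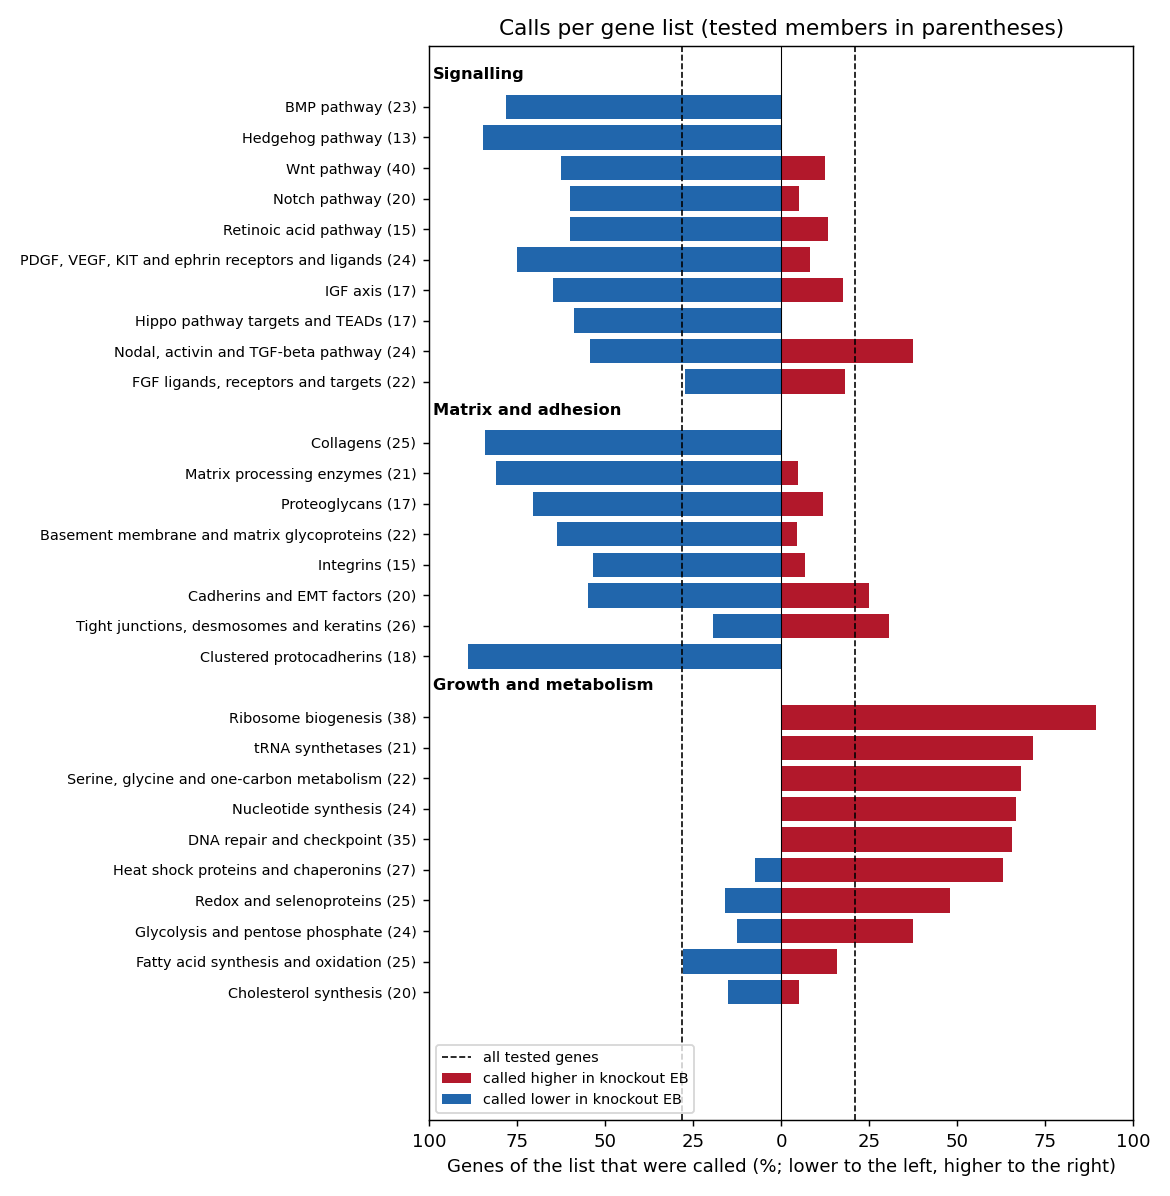
Share of the tested members of gene lists of signalling, matrix and adhesion, and growth and metabolism that were called higher (red, to the right) or lower (blue, to the left) in knockout EB, in percent, beside the shares of all tested genes (dashed lines, 21.0% and 28.2%). The signalling, matrix and adhesion lists plotted extend past the left dashed line, except FGF and tight junctions. Nodal, cadherins, tight junctions and the lists of growth and metabolism extend past the right one, except fatty acid and cholesterol genes, which stay within both.

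Genes that serve cell growth were higher in knockout EB, most by less than 2-fold. Ribosomal proteins as a class took 29.39% and 27.02% of all FPKM in knockout EB, against 22.17% and 18.96% in wild type EB. Of 38 factors that assemble ribosomes 34 were called higher and 0 lower, with a median of 0.90. This count was between 30 and 35 under the alternatives run, the equal-total scaling included. Ncl, nucleolin (ENSMUSG00000026234.12, chromosome 1, 86344719 to 86359400), had 751 and 696 FPKM in knockout EB, against 294 and 296 FPKM in wild type EB, a difference of 1.29 ± 0.11 (SE; limma, adjusted p = 0.00025). Ddx21, a helicase of rRNA processing, had 85.1 and 82.8 FPKM in knockout EB, against 38.6 and 38.6 FPKM in wild type EB, a difference of 1.10 ± 0.10 (SE; limma, adjusted p = 0.000362). Replicates of each genotype were nearly equal for both genes, and the knockout libraries stood at over 2-fold the wild type level. Wdr43 was at 1.06 and Nolc1 at 1.14.

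For the aminoacyl-tRNA synthetases and translation factors the calls were less stable. Of 21 synthetases 15 were called higher and 0 lower, with Farsb at 0.81 and Kars at 0.69. The count was 6 without knockout EB replicate 1, 8 without knockout EB replicate 2, 9 without wild type EB replicate 1, 7 without wild type EB replicate 2, 9 with no filter and 7 with equal totals. Of 29 translation factors 16 were called higher, 8 without knockout EB replicate 1, 10 without wild type EB replicate 2 and 9 with equal totals. Eif2s2, a subunit of the initiator tRNA carrier, had 510.3 and 340.2 FPKM in knockout EB, against 103.7 and 101.2 FPKM in wild type EB, a difference of 2.01 ± 0.22 (SE; limma, adjusted p = 0.000586). Eef1a2, the elongation factor form of muscle and nerve, was the 1 factor called lower, at -2.39.

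Serine, glycine and one-carbon metabolism supplies methyl groups and purine precursors, and 15 of its 22 tested genes were called higher and 0 lower, with a median of 0.88. Tdh, which mouse ES cells use to turn threonine into glycine (ENSMUSG00000021953.14, chromosome 14, 63492347 to 63509092), had 220.5 and 196 FPKM in knockout EB, against 7.62 and 15.6 FPKM in wild type EB, a difference of 4.13 ± 0.28 (SE; limma, adjusted p = 0.000151). Gldc, which cleaves glycine for one-carbon units (ENSMUSG00000024827.9, chromosome 19, 30098449 to 30175418), had 134 and 127 FPKM in knockout EB, against 20 and 24.2 FPKM in wild type EB, a difference of 2.52 ± 0.13 (SE; limma, adjusted p = 8.96e-05). Wild type EB stayed below 25 FPKM for both genes, and knockout EB above 100 FPKM. The folate enzymes Shmt1 and Mthfd1 were at 1.56 and 1.51. The serine synthesis enzymes Phgdh, at 0.37 (adjusted p = 0.372, limma), and Psat1, at 0.60 (adjusted p = 0.179), were not called.

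Nucleotide synthesis genes were called higher in 16 of 24 cases and lower in 0. Gart, a purine synthesis enzyme, had 184 and 155 FPKM in knockout EB, against 52.8 and 49.8 FPKM in wild type EB, a difference of 1.70 ± 0.11 (SE; limma, adjusted p = 0.00015). Prps1, which makes the ribose donor for nucleotides, had 113 and 102 FPKM in knockout EB, against 21 and 23.6 FPKM in wild type EB, a difference of 2.22 ± 0.15 (SE; limma, adjusted p = 0.000151). Rrm1, the large subunit of ribonucleotide reductase, was at 0.01 (adjusted p = 0.964, limma). Of 35 tested DNA repair and checkpoint genes 23 were called higher and 0 lower, with a median of 0.71. Msh6, a mismatch repair gene, had 136 and 123 FPKM in knockout EB, against 29 and 36.1 FPKM in wild type EB, a difference of 1.97 ± 0.12 (SE; limma, adjusted p = 0.000132). Rif1, a regulator of replication timing and repair choice, had 59.7 and 56.9 FPKM in knockout EB, against 15.3 and 17 FPKM in wild type EB, a difference of 1.79 ± 0.12 (SE; limma, adjusted p = 0.000151). The helicase Blm was at 1.49.

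Heat shock proteins and chaperonins were called higher in 17 of 27 cases. Hspb1, a small heat shock protein, had 810.3 and 601 FPKM in knockout EB, against 79.2 and 104 FPKM in wild type EB, a difference of 2.93 ± 0.22 (SE; limma, adjusted p = 0.0002). Hsp90aa1, an inducible HSP90, had 2142 and 1784 FPKM in knockout EB, against 574 and 646 FPKM in wild type EB, a difference of 1.68 ± 0.14 (SE; limma, adjusted p = 0.000252). The 2 called lower were small heat shock proteins of muscle, Hspb7 at -4.27 and Hspb2 at -2.26. Among redox genes 12 of 25 were called higher, with the glutathione transferases Gstm1 at 2.35 and Gsta4 at 2.22 and the peroxiredoxin Prdx1 at 1.31, while 4 were called lower, 2 without knockout EB replicate 1 or wild type EB replicate 1, with Gpx3, a secreted glutathione peroxidase, at -2.26.

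Central carbon and lipid metabolism genes were called in both directions. Of 24 glycolysis and pentose phosphate genes 9 were called higher and 3 lower, 1 without wild type EB replicate 1, and Pfkp, the platelet form of phosphofructokinase, had 139 and 116 FPKM in knockout EB, against 22.4 and 26.9 FPKM in wild type EB, a difference of 2.32 ± 0.19 (SE; limma, adjusted p = 0.000237). Ldhb was at 1.94, and Gapdh was at 0.15 (adjusted p = 0.531, limma). Eno3, the muscle enolase, was called lower with 10.3 and 21.6 FPKM in knockout EB, against 144 and 99.8 FPKM in wild type EB. Fabp3, a fatty acid binding protein, had 464 and 312 FPKM in knockout EB, against 47 and 48.2 FPKM in wild type EB, a difference of 2.97 ± 0.20 (SE; limma, adjusted p = 0.000151), while the fatty acid carrier Cd36 was at -1.98 and the desaturase Scd2 at -1.18. Fatty acid genes were called higher in 4 and lower in 7 of 25 cases, close to the shares of all genes. Cholesterol synthesis had 1 of 20 genes called higher and 3 lower, and 0 lower without either knockout EB library, 1 without either wild type EB library, 1 with no filter and 7 with equal totals. Among solute carriers 53 of 207 tested were called higher (25.6%) and 42 lower (20.3%), against 21.0% and 28.2% of all genes. The balance depended on scaling, with 43 higher and 62 lower with equal totals and a median between -0.22 and 0.10, and 25 were called lower without knockout EB replicate 1 and 26 without wild type EB replicate 2. The cationic amino acid transporter Slc7a3 had 54.7 and 56.3 FPKM in knockout EB, against 3.8 and 4.63 FPKM in wild type EB, a difference of 3.44 ± 0.15 (SE; limma, adjusted p = 6.13e-05).

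Chromatin regulators were called in both directions. Dnmt3b, a de novo DNA methyltransferase, had 142 and 188 FPKM in knockout EB, against 21.8 and 30.3 FPKM in wild type EB, a difference of 2.62 ± 0.18 (SE; limma, adjusted p = 0.000155). Tet1, which oxidises 5-methylcytosine, had 36.5 and 30.2 FPKM in knockout EB, against 7.8 and 8.57 FPKM in wild type EB, and Tet3 had 1.58 and 2.53 FPKM in knockout EB, against 8 and 8.89 FPKM in wild type EB, differences of 1.90 ± 0.14 (SE; limma, adjusted p = 0.000198) and -1.64 ± 0.30 (SE; limma, adjusted p = 0.00367). In all, 8 of 18 DNA methylation genes were called higher and 5 lower, with 2 lower without knockout EB replicate 1 or wild type EB replicate 2, and 3 without wild type EB replicate 1 or with no filter. Dnmt1, the maintenance enzyme, was at 0.25 (adjusted p = 0.0679, limma).

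Of 29 chromatin remodelling genes 12 were called lower, 7 without knockout EB replicate 1, and 5 higher, 3 without knockout EB replicate 1 and 3 with equal totals. The muscle-associated SWI/SNF subunits Smarcd3 and Dpf3 were at -3.51 and -2.02, and Smarcd3 had 1.33 and 2.83 FPKM in knockout EB, against 38.3 and 28.6 FPKM in wild type EB. The ATPase Smarca2 was at -1.77. Hells, a remodeller that supports DNA methylation, had 103 and 96.9 FPKM in knockout EB, against 34.1 and 33 FPKM in wild type EB, a difference of 1.55 ± 0.09 (SE; limma, adjusted p = 0.000104). Of 25 deacetylases and acetyltransferases 8 were called higher (32.0%) and 7 lower (28.0%), with a median of -0.07. Of 27 tested enzymes of H3K9, H3K4 and H3K36 methylation 5 were called higher and 5 lower (18.5% each). These shares compare with 21.0% and 28.2% of all genes. With equal totals the deacetylases and acetyltransferases had 5 rises and 11 falls, and the methylation enzymes had 3 rises and 6 falls. Falls of the methylation enzymes numbered 3 with no filter. No count of these lists rose when a single EB library was left out and most fell, the falls of the methylation enzymes most of all. The class IIa deacetylases Hdac5, at -1.47, Hdac7, at -1.80, and Hdac9, at -1.49, fell, and the demethylase Kdm4c had 36.7 and 30.4 FPKM in knockout EB, against 8.44 and 8.56 FPKM in wild type EB, a difference of 1.86 ± 0.20 (SE; limma, adjusted p = 0.000557). H2afy2, a macroH2A variant, was at -1.98, among 7 of 12 replacement and linker histone genes called lower, a count of 4 without knockout EB replicate 1 and 3 without wild type EB replicate 2.

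Most transcription factors of mesoderm derivatives were lower in knockout EB, while genes of primitive streak and early mesoderm were more often called higher. Of 13 tested genes of that early list 7 were called higher and 1 lower, with a median of 1.1. The rises numbered 4 with no filter and also varied with the EB library left out. Tbx5, a heart and forelimb factor (ENSMUSG00000018263.11, chromosome 5, 119832668 to 119885219), had 0.0146 and 0.282 FPKM in knockout EB, against 9.91 and 9.02 FPKM in wild type EB, a difference of -3.20 ± 0.18 (SE; limma, adjusted p = 9.23e-05). Pax1, a factor of sclerotome and pharyngeal pouches, had 0.0678 and 0.218 FPKM in knockout EB, against 15.9 and 13.4 FPKM in wild type EB, a difference of -3.77 ± 0.20 (SE; limma, adjusted p = 8.96e-05). Pitx1, a hindlimb factor, was at -4.16 and Osr1, of intermediate mesoderm, at -2.12. Of 14 tested genes of lateral plate and limb 13 were called lower and 0 higher. Of those 14 genes 3 passed the filter only through wild type EB, and 6 were called lower where a mean of at least 5 FPKM was required. Another 3 of 14 cardiac transcription factors, Tbx5 included, and 3 of 6 paraxial mesoderm genes, Pax1 included, passed only through wild type EB. Tbx3 was the 1 of 14 cardiac transcription factors called higher, with 36.3 and 27.5 FPKM in knockout EB, against 7.42 and 11.1 FPKM in wild type EB; it is also a factor of naive ES cells. Tcf15 was the 1 of 6 tested paraxial mesoderm genes called higher, with 26 and 28.5 FPKM in knockout EB, against 3.19 and 6.03 FPKM in wild type EB, a difference of 2.38 ± 0.29 (SE; limma, adjusted p = 0.000882). Eomes, a factor of primitive streak and trophoblast, had 11.1 and 19.2 FPKM in knockout EB, against 2.8 and 6.24 FPKM in wild type EB, a difference of 1.58 ± 0.44 (SE; limma, adjusted p = 0.0207) that was not called without knockout EB replicate 2 (adjusted p = 0.109), without wild type EB replicate 1 (0.130), with a pseudocount of 0.1 (0.054) or with no filter (0.0735).

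Markers of vessels and embryonic red blood cells were called lower or not called, while those of other blood cells, nerve and gut were called in both directions. All 14 tested genes of primitive erythroid cells were called lower, though 6 of them passed the filter only through wild type EB and 7 were called where a mean level of 5 FPKM or more was required. Of 20 endothelial markers 11 were called lower and 0 higher, 7 without knockout EB replicate 1 and 5 without wild type EB replicate 1. Cldn5, a tight junction protein of vessels, had 3.38 and 8.34 FPKM in knockout EB, against 46.9 and 42.5 FPKM in wild type EB, while Pecam1, which ES cells also carry, had 31.4 and 32.5 FPKM in knockout EB, against 35.5 and 25.2 FPKM in wild type EB, with overlapping groups. Of 8 tested genes of macrophages and other blood cells 4 were called lower and 1 higher, and 4 of the 8 passed the filter only through wild type EB. Tyrobp, an adaptor of myeloid cells, had 0.581 and 0.876 FPKM in knockout EB, against 7.1 and 6.85 FPKM in wild type EB, a difference of -2.21 ± 0.17 (SE; limma, adjusted p = 0.000207), and Fcer1g was listed at 0 in both knockout EB libraries. Cd68, a lysosomal protein of macrophages and other cells, was the 1 called higher, with 9.51 and 5.61 FPKM in knockout EB, against 1.43 and 1.64 FPKM in wild type EB, a difference of 1.72 ± 0.28 (SE; limma, adjusted p = 0.00244). Of 7 tested genes of neurons 2 were called higher and 2 lower, and 1 lower without knockout EB replicate 1 or without either wild type EB library. The rises were Stmn2 and Ina: Stmn2 had 97.2 and 95.4 FPKM in knockout EB, against 11.4 and 9.16 FPKM in wild type EB, a difference of 3.11 ± 0.12 (SE; limma, adjusted p = 4.86e-05), and Ina was at 2.55. The falls were the factor Isl1, which heart progenitors also carry, at -2.46, and Gap43, a protein of growing axons, at -1.71, the call that was lost. Of 11 tested neural progenitor genes 3 were called higher, with Sox2, also an ES cell factor, at 1.96, and 6 lower, with Irx3 at -2.93. Of these 11 genes, 3 passed the filter only through wild type EB. Thy1, a surface protein of fibroblasts and other cells, was the 1 fibroblast list gene called higher, with 21.3 and 19.4 FPKM in knockout EB, against 1.1 and 2.2 FPKM in wild type EB, a difference of 3.04 ± 0.27 (SE; limma, adjusted p = 0.0003). Of 15 genes of definitive endoderm and gut 4 were called higher (26.7%) and 5 lower (33.3%). Of 22 tested genes of visceral and parietal endoderm 4 were called higher (18.2%) and 8 lower (36.4%). Of all genes 21.0% were called higher and 28.2% lower. In the visceral and parietal list 3 genes passed the filter only through knockout EB, and with equal totals 2 were called higher and 9 lower. Falls of the definitive endoderm and gut list numbered 3 with no filter and 3 with EB libraries only. Counts of both lists also varied with the EB library left out. Among the endoderm genes the secreted trypsin inhibitor Spink1 was at 2.37, the retinol carrier Rbp4 at -3.09 and the factor Foxa1 at -2.10.

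Antiviral genes and the X-linked germline genes of the Xlr and Rhox clusters were more often called higher than lower. Of 22 tested interferon-stimulated genes 11 were called higher and 2 lower, 1 lower without knockout EB replicate 1 or without either wild type EB library and 4 with equal totals. Bst2, tetherin, which holds budding virus at the cell surface, had 166 and 147 FPKM in knockout EB, against 38.4 and 32.2 FPKM in wild type EB, a difference of 2.12 ± 0.15 (SE; limma, adjusted p = 0.000155). Oas1a, a sensor of double-stranded RNA, had 11.3 and 8.27 FPKM in knockout EB, against 1.45 and 1.41 FPKM in wild type EB, a difference of 2.14 ± 0.17 (SE; limma, adjusted p = 0.000241). The transcription factor Irf1 was at 1.62, while Isg15, a common interferon target, was at 0.13 (adjusted p = 0.803, limma), and Ifit2 was called lower at -1.17. The 12 tested genes of the Xlr and Rhox clusters were each called higher, 8 of which passed the filter only through knockout EB. Xlr5b was listed at 0 in both wild type EB libraries. Xlr3a had 53.2 and 36 FPKM in knockout EB, against 1.25 and 0.728 FPKM in wild type EB, a difference of 4.51 ± 0.24 (SE; limma, adjusted p = 8.96e-05), and Xlr copies are near-identical, so their split is uncertain. Knockout ES cells also had more Xlr3a than wild type ES cells, a difference of 2.37 (limma, adjusted p = 0.018).

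Of 30 splicing regulators 7 were called lower (23.3%) and 2 higher (6.67%), against 28.2% and 21.0% of all genes, and 1 higher without knockout EB replicate 1 or without either wild type EB library. Rbm24, a splicing factor of muscle, had 1.03 and 3.53 FPKM in knockout EB, against 39 and 25.4 FPKM in wild type EB, a difference of -3.42 ± 0.37 (SE; limma, adjusted p = 0.000601). Rbfox2 was at -1.13 and Mbnl1, which promotes adult splicing patterns, at -1.85, and Esrp1 was among the rises. Of 19 genes of miRNA processing and the Lin28 axis 7 were called higher (36.8%) and 4 lower (21.1%), and the sign of their median depended on scaling (from -0.11 to 0.21). L1td1, an RNA-binding protein of ES cells, had 233 and 214 FPKM in knockout EB, against 11.1 and 18.6 FPKM in wild type EB, a difference of 3.86 ± 0.21 (SE; limma, adjusted p = 9.23e-05). Lin28b, which blocks maturation of let-7 miRNAs, was at -1.01, and Hmga2, a chromatin protein and let-7 target, had 33 and 70.7 FPKM in knockout EB, against 148 and 179 FPKM in wild type EB, a difference of -1.73 ± 0.35 (SE; limma, adjusted p = 0.00585).

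Apoptosis genes were called at shares near those of all genes, with 7 of 29 higher (24.1%) and 7 lower (24.1%), against 21.0% and 28.2%. Pmaip1, the proapoptotic protein Noxa, had 17.3 and 18.2 FPKM in knockout EB, against 1.58 and 1.41 FPKM in wild type EB, a difference of 2.91 ± 0.33 (SE; limma, adjusted p = 0.000669). Trp53, p53, had 146.6 and 168 FPKM in knockout EB, against 100.5 and 100.8 FPKM in wild type EB, a difference of 0.64 ± 0.13 (SE; limma, adjusted p = 0.00531), while its target Cdkn1a, a cell cycle inhibitor, had 70 and 81 FPKM in knockout EB, against 72 and 92.2 FPKM in wild type EB, with overlapping groups and a difference of -0.11 ± 0.16 (SE; limma, adjusted p = 0.586). Bcl2, which protects from apoptosis, was at -1.45 and the BH3-only protein Bmf at -1.46. Apoptosis genes called higher numbered 3 without knockout EB replicate 1 and 4 with equal totals, and those called lower 4 without wild type EB replicate 2. Jun, an immediate early transcription factor, had 14.4 and 19.9 FPKM in knockout EB, against 51.4 and 63.6 FPKM in wild type EB, a difference of -1.70 ± 0.22 (SE; limma, adjusted p = 0.00114), and Fos, its partner, was at -0.03 (adjusted p = 0.909, limma).

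Germ cell and meiosis genes were called higher in 10 of 14 cases, 7 of the 14 having passed the filter only through knockout EB. Tdrd12, a protein of the piRNA pathway, had 57.3 and 39.9 FPKM in knockout EB, against 1.4 and 2.82 FPKM in wild type EB, a difference of 4.01 ± 0.38 (SE; limma, adjusted p = 0.000373). Sycp3, of the synaptonemal complex, had 6.75 and 5.63 FPKM in knockout EB, against 0.551 and 0.243 FPKM in wild type EB, a difference of 2.37 ± 0.19 (SE; limma, adjusted p = 0.000242). Both are genes of meiosis or the germ line that wild type EB held at under 3 FPKM. Dazl, a germ cell RNA-binding protein, was at 1.19 (adjusted p = 0.164, limma) and was not called.

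Zinc finger genes named Zfp and a number, many of them KRAB repressors, had 50 rises and 93 falls among 320 tested (15.6% and 29.1%), and 60 falls without knockout EB replicate 1 and 60 without wild type EB replicate 2. Zfp57, which keeps DNA methylation at imprinted regions, had 77 and 63.6 FPKM in knockout EB, against 16.3 and 18.4 FPKM in wild type EB, a difference of 1.95 ± 0.15 (SE; limma, adjusted p = 0.000198). Zfp503, a developmental repressor, had 0.379 and 1.58 FPKM in knockout EB, against 17.5 and 23.7 FPKM in wild type EB, a difference of -3.50 ± 0.30 (SE; limma, adjusted p = 0.000281).

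Tissue-specific forms of widely used proteins were among the called genes. Cox6a2, the heart and muscle form of a cytochrome oxidase subunit, had 0.136 and 0.755 FPKM in knockout EB, against 17.7 and 23.4 FPKM in wild type EB, a difference of -3.92 ± 0.25 (SE; limma, adjusted p = 0.000137), while the broadly expressed subunit Cox7c had 888 and 760.4 FPKM in knockout EB, against 471 and 458 FPKM in wild type EB, a difference of 0.82 ± 0.12 (SE; limma, adjusted p = 0.00157). Of 85 respiratory chain subunits 15 were called higher and 4 lower, with 5 higher without knockout EB replicate 1, 6 without wild type EB replicate 2 and 7 with equal totals. With equal totals 18 were called lower, more than were called higher, and the median over the list changed sign (0.11 as deposited and -0.10 with equal totals). Tagln, an actin-binding protein of smooth muscle, had 8.3 and 10.5 FPKM in knockout EB, against 79.7 and 85.8 FPKM in wild type EB, a difference of -3.02 ± 0.28 (SE; limma, adjusted p = 0.000337), and 11 of 12 tested smooth muscle genes were called lower. Tuba4a had 65 and 68.8 FPKM in knockout EB, against 14.4 and 13.9 FPKM in wild type EB and Tuba1a, the main tubulin of differentiating neurons, had 234 and 288 FPKM in knockout EB, against 678 and 533 FPKM in wild type EB, differences of 2.16 ± 0.11 (SE; limma, adjusted p = 8.96e-05) and -1.21 ± 0.16 (SE; limma, adjusted p = 0.00108). Psmb10 and Psmb9, subunits of the immunoproteasome, were at 1.28 and 1.29, and Psmb10 had 32.1 and 35.8 FPKM in knockout EB, against 15.8 and 11.3 FPKM in wild type EB.

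Ion channels and gap junction genes were called in both directions. Hcn4, the pacemaker channel of the heart, had 0.128 and 0.526 FPKM in knockout EB, against 9.33 and 7.11 FPKM in wild type EB, a difference of -2.80 ± 0.21 (SE; limma, adjusted p = 0.000198). Gja5, a connexin of heart and arteries, was at -3.43 and the cardiac potassium channel Kcnh2 at -2.98, while the potassium channel Kcnk1 was at 1.26. Of 21 tested genes 14 were called lower and 6 higher, but 7 of the 21 passed the filter only through wild type EB, and 4 were called lower where a mean level of 5 FPKM or more was required.

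The histone marks of the same genes in EB were compared with the RNA calls. ChIP values are the authors' signal per gene, named RPKM on promoters in the deposit, with 1 library per genotype and so no test. They were used only as ratios within a gene because they grow with gene length. In 922 genes called higher by 2-fold or more in RNA, the median log2 ratio of knockout over wild type was -0.28 for H3K27me3 and 0.58 for H3K4me3. In 1765 genes called lower by 2-fold or more, the medians were 0.36 and -0.57. In 5325 genes not called they were 0.08 and -0.18, close to the 0.09 and -0.18 of all 11155 genes with a value. H3K27me3 was lower by 2-fold or more in 21.1% of the first class, against 3.1% of genes not called. The second class was mixed for this mark. It was higher by 2-fold or more in 12.3% of that class and lower in 7.0%, against 1.5% and 3.1% of genes not called. Values of the wild type EB library of H3K27me3 had coarser steps. H3K4me3 was higher by 2-fold or more in 30.4% of the first class, against 1.6% of genes not called, and lower by 2-fold or more in 18% of the second class, against 0.5% of genes not called. With loci under 10 kb only, the H3K27me3 medians were -0.32 and 0.09. In ES cells the same classes had medians between -0.03 and 0.07 for both marks.

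Nodal had an H3K27me3 signal of 1.01 in knockout EB, against 16.3 in wild type EB, and an H3K4me3 signal of 33.7 in knockout EB, against 15.8 in wild type EB. Fgf4 had an H3K27me3 signal of 4 in knockout EB, against 32.7 in wild type EB, and an H3K4me3 signal of 28.4 in knockout EB, against 9.23 in wild type EB. In both genes the RNA and H3K4me3 were higher and H3K27me3 lower in knockout EB. Cdh1 showed the same directions, with an H3K27me3 signal of 5.6 in knockout EB, against 29.5 in wild type EB. For Col3a1 the H3K4me3 signal was 1.17 in knockout EB, against 8.96 in wild type EB, and the H3K27me3 signal was 1.89 in knockout EB, against 1.56 in wild type EB. Shh and Pax1 did not follow the class medians: their RNA was lower in knockout EB, and so was their H3K27me3 signal, at 28.5 in knockout EB, against 99.6 in wild type EB for Shh and at 18.5 in knockout EB, against 57.8 in wild type EB for Pax1. These genes were picked for display after their values were seen.

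**Figure D4:**
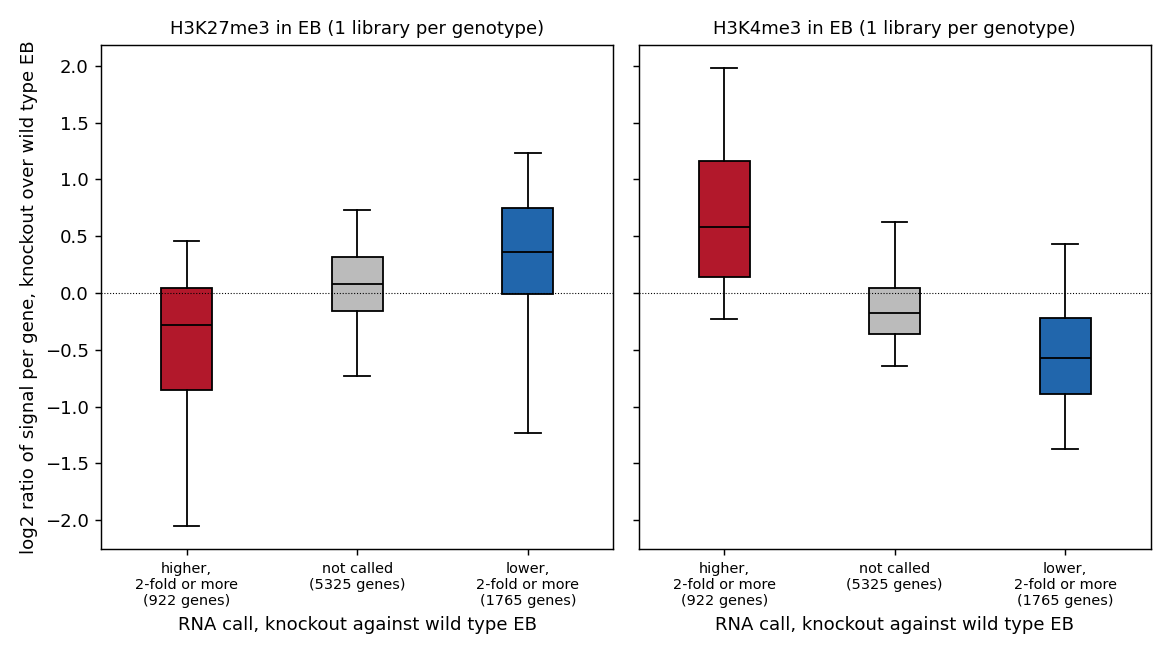
Log2 ratio of ChIP signal per gene, knockout over wild type EB, for H3K27me3 (left) and H3K4me3 (right), by RNA class; boxes show the median and quartiles and whiskers the 5th to 95th percentile over genes. The median is -0.28 (H3K27me3) and 0.58 (H3K4me3) in genes higher in knockout EB, and 0.36 and -0.57 in genes lower in knockout EB.

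The EB difference was also summarised by chromosome. Medians over the genes of an autosome or of X ranged from -0.14 on chromosome 1 to -0.03 on chromosome 4, and the share of genes called higher from 17.5% on chromosome 19 to 24.8% on X. The 16 tested mitochondrial genes had a median of 0.11, with 0 called higher and 1 lower, and the 10 tested genes of Y had a median of 0.11.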

How the data were processed

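RNA was measured in 8 libraries, 2 each of knockout EB, wild type EB, knockout ES cells and wild type ES cells. The deposited values are FPKM per gene in 1 table; per the submitters' processing notes, reads were processed with STAR 2.6.0a and Cufflinks 2.2.1 on mm10, and Bowtie2, HTSeq and DESeq2 are also listed without a stated role. The table had 53560 rows, of which 120 second entries of a symbol were left out. ChIP signal per gene is the deposited value, named RPKM on promoters in the deposit, with no unit in the column headers. Its normalization is not described further in the sources used here, and the values grow with gene length. It was therefore not taken as signal per kilobase, only as a ratio within a gene with 0.5 added to both values.

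The 14421 genes that reached 1 FPKM in 2 or more of the 4 EB libraries were fitted on log2(FPKM + 1) in R 4.3.3 (limma 3.58.1), with 1 mean for each of the 4 RNA groups, a mean-variance trend and two-sided tests. Residual degrees of freedom were 4 (7.4 with the prior). Adjusted p-values are Benjamini-Hochberg over all 14421 genes. A pseudocount of 1 understates changes of low genes. FPKM are not counts, so no count test was run. The second contrast was the EB difference minus the ES difference.

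Named genes are the CAF-1 genes and other chosen genes whatever their result, the 12 largest rises and falls, and per list up to 4 called members in each direction with the smallest adjusted p and up to 4 members not called. The members and lists were chosen with earlier results of these data known, and 7 gene families picked by symbol were added later. Promoters are RefSeq windows (GRCm38.p6), matched by symbol. List members outside the table and loci counted under a shared symbol were not analysed here. Alternatives covered the pseudocount, filter, scaling, trend, EB libraries only, the replicate block and leaving out each library. Some named genes are not reported here.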

Additional observations from a re-analysis of the deposited data

Results flagged for a closer look

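The knockout effect in EB differed from that in ES cells for 4977 of 14421 genes (34.5%) by limma's interaction contrast at an adjusted p under 0.05. Both contrasts have their own libraries. Among the genes chosen for display, the EB difference minus the ES difference was positive for the pluripotency factors Pou5f1 (3.75) and Nanog (3.72), the methyltransferase Dnmt3b (2.23), the let-7 regulator Lin28a (0.99) and the CAF-1 subunit Chaf1b (0.59), all on the log2 scale. It was negative for the heart genes Tnnt2 (-6.16), Nkx2-5 (-4.63), Hand1 (-2.85) and Gata4 (-2.18). It was also negative for the embryonic globin Hbb-y (-6.25), the growth factor Igf2 (-4.95) and the imprinted noncoding RNA H19 (-3.60). Connective tissue and endoderm genes were negative too, with Col1a1 at -4.87, Afp at -3.86, Gata6 at -3.62, Shh at -3.39 and Cdh2 at -1.67.

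For Krt18 the value was -2.32, for Wnt5a -1.40, for Cdkn1a -1.34 and for the mesoderm factor T -0.97. Krt18 was at -0.03 in EB (limma, adjusted p = 0.88) and at 2.28 in ES cells (adjusted p = 0.00566). Cdkn1a was at -0.11 in EB (adjusted p = 0.586) and at 1.23 in ES cells (adjusted p = 0.0397). Igf2 was at -2.49 in EB (limma, adjusted p = 0.000548) and at 2.46 in ES cells (limma, adjusted p = 0.0231). H19 was at -1.97 in EB (limma, adjusted p = 0.00241) and at 1.63 in ES cells (limma, adjusted p = 0.0937), the latter not called.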

How the results depend on the processing

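The counts of 3030 rises and 4060 falls stayed within 1.5 times under all alternatives run but 1: leaving out 1 EB library gave 1910 to 2628 rises and 2672 to 3628 falls, lowest without knockout EB replicate 1, and the cause was not tested. Leaving out 1 ES library gave 2859 to 2998 rises and 3897 to 4040 falls. The count of genes whose effect differed between EB and ES (4977) ranged from 3108 to 4721 without 1 EB library and from 3258 to 3865 without 1 ES library, with 3108 without knockout EB replicate 1, 3236 without wild type EB replicate 2 and 3258 without wild type ES replicate 1. Of 431 genes named by the rule, 425 were called, and 358 of these stayed called under every alternative, while 67 lost the call under at least 1, each of them when a library was left out. Ezh2 was not called and became so, and no named gene changed direction. With a mean of at least 5 FPKM, which tests fewer genes, 2279 rises and 2726 falls were called, and falls were 12 in collagens, 7 in Hedgehog genes, 6 in lateral plate genes, 4 in ion channels, 3 in neural progenitors and 1 in clustered protocadherins; rises were 7 in interferon-stimulated genes, 5 in germ cell genes, 5 in tight junction genes, 31 in solute carriers and 6 in Xlr and Rhox genes.

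Replicate numbers are shared by the groups, but the labels do not say that they mark a batch. The differences between replicates of knockout and wild type EB correlated at 0.177 over genes. With a replicate block 3136 genes were called higher, 4142 lower and 5276 differed between EB and ES. With loci under 10 kb only, a setting chosen after seeing the data, the median ChIP ratios were -0.32 (H3K27me3) and 0.73 (H3K4me3) in genes at least 2-fold higher, and 0.09 and -0.55 in genes at least 2-fold lower; the cause was not tested. Read depth is unknown, and 2 libraries per group limit the precision. ChIP had 1 library per genotype and mark, and the wild type EB library of H3K27me3 had coarser steps.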
